A study of Mus musculus with 3 samples.

Results

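The spots rich in steroid enzymes were spots of tissue sections in which 3 enzyme genes took an unusually large share of the RNA. These were Srd5a1 (steroid 5-alpha-reductase, which reduces testosterone and progesterone), Hsd3b6 (a 3-beta-hydroxysteroid dehydrogenase, which makes progesterone from pregnenolone) and Bco1 (the oxygenase that cleaves beta-carotene to retinal, the precursor of retinoic acid). Levels are CPM, the unique molecular identifiers (UMIs) of a gene scaled to a common total for a spot or a sum of spots. Members were chosen by measured levels: a spot was a member if the 3 enzymes summed to at least 1500 CPM, the 4 trophoblast genes Prl3d1, Prl4a1, Hand1 and Plac1 summed to less than 1000 CPM, and the decidual prolactin gene Prl8a2 stood below 60000 CPM. Of 3939 spots with at least 1000 UMIs, 255 were members (called enzyme-rich spots here). They were compared with all other kept spots of the same library (the other spots).

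The study placed frozen sections of mouse uterus on 10x Visium slides, on which RNA from a patch of tissue, often of mixed cell types, is caught under a positional barcode. Females had normal chow and were caged with littermates until 8 weeks old, then paired with stud males, and their uteri were taken on day 7.5 of pregnancy; the labels name no treatment or genotype contrast. The strain is not given in the sources used here. There was 1 group of 3 libraries, and the first of them holds sections of biological replicates 1 and 2 in 1 matrix and counts as 1 library, so n = 3. Values of the libraries are given below in the order replicates 1 and 2, replicate 3, replicate 4.

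During decidualization the stromal cells around an implanted embryo become large secretory cells under progesterone, and they form zones that differ in their genes. Steroid hormones are made from cholesterol, which the Star protein delivers to mitochondria, where Cyp11a1 cuts its side chain, and other enzymes then build, convert or inactivate the hormones. Retinoic acid is made from retinol or carotenoids by retinal-forming enzymes and retinaldehyde dehydrogenases, and Cyp26 enzymes break it down.

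The libraries held 92 members of 1773 kept spots, 75 of 1080 and 88 of 1086. Their share was 5.19% in the first library (95% exact binomial interval from 4.20 to 6.33%). It was 6.94% (5.50 to 8.63%) for replicate 3 and 8.10% (6.55 to 9.89%) for replicate 4, with a mean of 6.75% ± 1.47 (SD, n = 3). The intervals cover counting error only. The enzyme limit alone was passed by 136, 79 and 105 spots, of which the Prl8a2 limit removed 43, 2 and 7 and the trophoblast limit removed 1, 2 and 10. The summed level of the 3 enzymes, which chose the spots, had medians of 3182, 2341 and 3919 CPM among members and highest values of 6583, 4323 and 7124 CPM. The lowest members stood at 1560, 1523 and 1605 CPM, and the highest spots outside the limit stood at 1491, 1494 and 1462 CPM. In replicate 3 there were 26 spots between 1200 and 1500 CPM and 17 between 1500 and 1800 CPM, so that there the limit fell in a dense range. The first library had 8 and 12 such spots and replicate 4 had 7 and 4.

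Enzyme-rich spots were deeper than the other spots in all 3 libraries, with medians of 13907.5, 30023 and 42790 UMIs against 7915, 25952 and 27092.5 UMIs. Their summed counts held 1292478, 2241223 and 3757420 UMIs, and those of the other spots 15601981, 25037760 and 26195652 UMIs. Mitochondrial genes took 0.993, 0.627 and 0.633% of UMIs in enzyme-rich spots and 1.13, 0.915 and 0.829% in the other spots. The 3 libraries draw on the same set of Visium barcodes, and 676 to 825 barcodes occurred in both libraries of a pair. A barcode marked a member in both libraries of a pair in 0, 0 and 11 cases. Fewer cells of a type in a spot and less RNA per cell cannot be told apart in these sums.

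Across the transcriptome, enzyme-rich spots differed from the other spots in many genes. Counts were summed per library over each spot set and compared with edgeR, with the library as a block. A gene was called where its Benjamini-Hochberg adjusted p was below 0.05 and its fold change was 1 or more in size on the log2 scale. The ± after a fold change is a standard error derived from the edgeR test statistic, whose spread is in part shared across genes. The 8 genes of the rule were left out. Of 13165 genes tested, 1165 (8.85%) were higher and 2011 (15.3%) lower in enzyme-rich spots. Both shares are the background for the counts of listed genes against all other spots below. The tested genes were counted in the same spots and the same reads as the genes that chose the spots, so these tests describe the chosen spots. The median log2 fold change over all genes was -0.08. With total UMIs as the only scaling it was -0.38, and 749 genes were higher and 2922 lower, so that 20.4% of calls were higher in place of 36.7%. Among spots of like depth (between the quartiles of the members' UMIs in each library), 904 genes were higher and 1132 lower. The levels of enzyme-rich spots lay above those of the other spots without overlap for 13.7% of genes and below for 45.2%.

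Several genes of steroid hormone synthesis other than the defining ones were higher in enzyme-rich spots. The clearest was Cyp11b1 (chr15:74834125-74841643 on the minus strand, GRCm38), the 11-beta-hydroxylase known for making corticosterone in the adrenal. It stood at 256, 162 and 186 CPM in the enzyme-rich spots and 23.3, 15.1 and 24.7 CPM in the other spots. No library of either set reached into the other set's range. The log2 fold change was 3.54 ± 0.11 (edgeR adjusted p = 5.1e-12). At a fixed depth of 5000 UMIs per spot, 67.4, 46.7 and 44.3% of enzyme-rich spots and 9.46, 6.35 and 9.10% of other spots held a Cyp11b1 UMI, leaving out 3, 0 and 0 enzyme-rich and 413, 13 and 9 other spots that were shallower. Without thinning, these shares were 80.4, 92.0 and 89.8% against 12.97, 21.5 and 25.9%. Its near-identical neighbour Cyp11b2 had 0 UMIs in these sums, and reads that fit both copies could have been lost or misplaced.

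Star, the cholesterol carrier of the first step, stood at 23.2, 34.8 and 30.9 CPM in the enzyme-rich spots and 6.54, 13.9 and 6.83 CPM in the other spots. All 3 levels in enzyme-rich spots exceeded all levels in the other spots, and the log2 fold change was 2.07 ± 0.19 (edgeR adjusted p = 3.4e-07). Cyp11a1 (chr9:58006411-58027023, plus strand), the side-chain cleavage enzyme, was abundant on both sides, at 1109, 964 and 823 CPM in the enzyme-rich spots and 559.6, 445 and 467 CPM in the other spots. Its levels did not overlap between the sets. Its log2 fold change of 1.26 ± 0.07 (edgeR adjusted p = 2.3e-09) lay close to the limit of 1 and came to 0.97 with total UMIs as the only scaling, where it lost the call. Hsd3b7, an enzyme of bile acid and oxysterol conversion, had a log2 fold change of 1.22 ± 0.10 (edgeR adjusted p = 1.1e-07) and lost its call in the same way, at 0.92. Hsd11b1, which regenerates active glucocorticoid, did not pass the fold limit at 0.48.

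Akr1c18 (chr13:4132615-4150654, minus strand), the 20-alpha-hydroxysteroid dehydrogenase that inactivates progesterone, stood at 36.4, 178 and 19.2 CPM in the enzyme-rich spots and 3.72, 17.7 and 3.24 CPM in the other spots. Replicate 3 was the highest library on both sides. Within each library the enzyme-rich spots were higher, and over libraries the ranges did not overlap. The log2 fold change was 3.41 ± 0.15 (edgeR adjusted p = 2.0e-10). Akr1c genes are near copies of each other, so their counts carry that uncertainty.

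Some enzymes that inactivate or convert steroids were lower. Hsd11b2 (chr8:105518755-105523988, plus strand), which inactivates glucocorticoids, stood at 0.774, 2.23 and 0.798 CPM in the enzyme-rich spots and 41.3, 36.7 and 35.5 CPM in the other spots. Every enzyme-rich sum was far below every other sum, with a log2 fold change of -4.59 ± 0.27 (edgeR adjusted p = 4.1e-09). Hsd17b10, a mitochondrial dehydrogenase, stood at 20.9, 18.3 and 22.6 CPM in the enzyme-rich spots and 75.8, 77.5 and 77.2 CPM in the other spots, without overlap, and its log2 fold change was -1.59 ± 0.12 (edgeR adjusted p = 7.7e-08). Hsd17b1, which makes estradiol from estrone, was lower at -1.84 ± 0.24 (edgeR adjusted p = 1.8e-05). Of the 22 tested genes of the list of steroid synthesis and inactivation, 5 were higher and 4 lower, with a median log2 fold change of -0.05 (all genes: 8.85% higher, 15.3% lower, median -0.08). The fourth lower gene, Akr1c14, rested on sums of about 1 CPM or less in members (0.774, 0.892 and 0.798 CPM) and lost its call without the library block (-1.52). With total UMIs as the only scaling, 3 were higher and 5 lower. Cyp19a1, the aromatase, Hsd3b1 and Akr1c6 had 0 UMIs in all sums, and Cyp17a1 stood at 0.686 CPM over all enzyme-rich spots and 0.658 CPM over all other spots. Cyp21a1, the steroid 21-hydroxylase, had 0 UMIs in enzyme-rich spots and 18 UMIs (0.269 CPM) in the other spots.

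**Figure D1:**
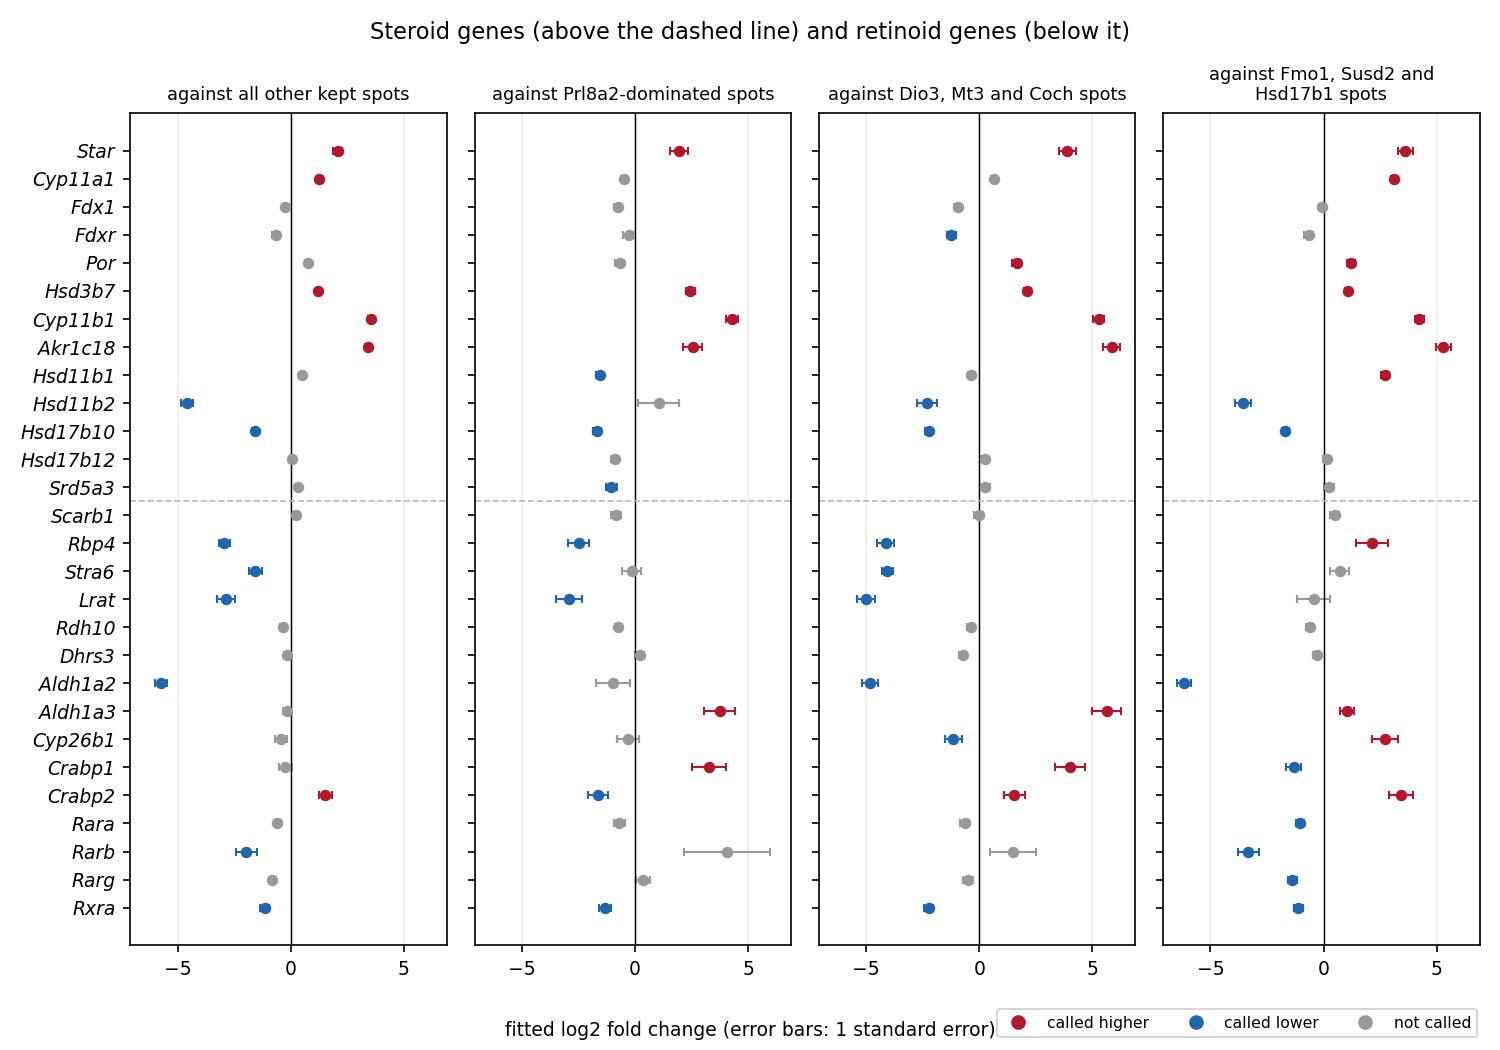
Fitted log2 fold changes (horizontal axis, bars are 1 standard error) of steroid genes and retinoid genes in enzyme-rich spots against all other kept spots and against 3 other sets of spots. Cyp11b1, Star and Akr1c18 lie right of 0 in all 4 panels, Hsd17b10 left of 0 in all 4, and Hsd11b2 is left of 0 in 3 of the 4; all panels use the same enzyme-rich sums, and the Prl8a2-dominated panel rests on 2 libraries.

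Of 22 tested genes that handle retinoids, 9 were lower in enzyme-rich spots and 1 was higher, against 15.3% lower and 8.85% higher over all genes. Aldh1a2 (chr9:71215789-71296243, plus strand), the main retinaldehyde dehydrogenase of uterine stroma, stood at 0, 2.23 and 0.798 CPM in the enzyme-rich spots and 66.0, 78.2 and 70.5 CPM in the other spots. The first library had 0 UMIs in its enzyme-rich spots, and the log2 fold change was -5.73 ± 0.27 (edgeR adjusted p = 3.5e-10). Rbp4 (-2.93), the retinol carrier, Lrat (-2.87), which esterifies retinol, and Rarb (-1.97), a retinoic acid receptor and target, were also lower. Cyp26a1 and Aldh1a1 had 0 UMIs in all enzyme-rich sums and were at least 11.7-fold and 4.44-fold lower, taking 3 counts over the group as the limit of a count of 0. Crabp2, a retinoic acid carrier, was the 1 gene higher, at 1.53 ± 0.30. Its ranges overlapped (6.96, 18.3 and 3.46 CPM against 3.59, 5.15 and 2.52 CPM), and without replicate 3 the fold was 0.97 and the call was lost. The list's median was -0.51, and its 1 higher gene was not called without replicate 3. The list summed to 286, 322 and 331 CPM in enzyme-rich spots and to a like 291 and 386 CPM in the Prl8a2-dominated spots. It was higher in the Dio3, Mt3 and Coch spots (791, 761 and 677 CPM) and in the Fmo1, Susd2 and Hsd17b1 spots (643, 781 and 752 CPM). These sets are described further below.

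Genes of lipoprotein uptake and of cholesterol synthesis were among the genes higher than in all other spots. Vldlr, a receptor for triglyceride-rich lipoprotein particles, stood at 179.5, 219.5 and 181 CPM in the enzyme-rich spots and 79.2, 65.8 and 55.5 CPM in the other spots, without overlap, with a log2 fold change of 1.85 ± 0.11 (edgeR adjusted p = 3.8e-09). Msmo1 (1.496 ± 0.10) and Sqle (1.39 ± 0.13), enzymes of the sterol pathway, were also called higher. Apoe, a lipid carrier protein, was lower at -1.92 ± 0.11, a call lost among spots of like depth (-0.81). Of 29 tested genes 7 were higher and 2 lower, with a median of 0.73 against -0.08 over all genes, and 5 were higher with total UMIs as the only scaling. The list summed to 4193, 4218 and 5192 CPM in enzyme-rich spots. It was higher in the Prl8a2-dominated spots (6096 and 7547 CPM) and in the Dio3, Mt3 and Coch spots (6308, 6209 and 5605 CPM). In the Fmo1, Susd2 and Hsd17b1 spots it was lower (2356, 2496 and 2693 CPM). These sets are described further below.

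Of 23 tested hormone receptors and their partners 7 were lower and 1 was higher, against 15.3% and 8.85% over all genes, with a median of -0.45. Pgr, the progesterone receptor, stood at 43.3, 44.2 and 31.4 CPM in the enzyme-rich spots and 51.2, 48.7 and 47.7 CPM in the other spots, and its fold change was -0.05 ± 0.12 (edgeR adjusted p = 0.74). Esr1, the estrogen receptor, stood at 31.7, 28.6 and 28.2 CPM in the enzyme-rich spots and 75.8, 86.0 and 81.2 CPM in the other spots. Its levels in enzyme-rich spots were below all levels in the other spots, with a log2 fold change of -1.18 ± 0.11 (edgeR adjusted p = 7.0e-07). Fkbp4, a co-chaperone of Pgr, was lower at -1.31 ± 0.10. Nr3c1, the glucocorticoid receptor, did not pass the fold limit at 0.50 ± 0.17. Of 19 genes known to respond to progesterone or estrogen 2 were higher and 4 lower, near the shares over all genes (1 of 17 higher without replicate 4). Igf1, an estrogen-responsive growth factor, was lower at -3.31 ± 0.16, while Hand2, a progesterone target of the stroma, was at 0.75 ± 0.07, short of the fold limit.

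Of 22 tested markers of decidual cells 2 were higher and 3 lower, shares near the 8.85% and 15.3% over all genes, and their median was 0.33 (4 higher without replicate 3). Gja1, the gap junction protein connexin 43, stood at 1740.1, 1458 and 1396 CPM in the enzyme-rich spots and 815, 765 and 708 CPM in the other spots. The sets did not overlap and the log2 fold change was 1.29 ± 0.06 (edgeR adjusted p = 6.7e-10). Cryab, a small heat shock protein, was higher at 1.64 ± 0.06 (edgeR adjusted p = 2.6e-11), while Alpl, alkaline phosphatase of the early decidua, was lower at -2.41 ± 0.18 (edgeR adjusted p = 4.8e-08). In the prolactin family 1 of 11 tested genes other than the defining ones was higher and 2 were lower. The lower ones were Prl3c1 (-1.98 ± 0.35) and Prl2a1 (-2.02 ± 0.27), whose levels overlapped between the sets, and both turned to 0.10 and 1.76 once trophoblast and Prl8a2-dominated spots left the reference. Prolactin genes are close relatives, and their counts carry that uncertainty.

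The genes with the largest rises by the naming rule covered proteases, a peptide hormone, ion handling and inflammation-linked calcium binding proteins. Corin (chr5:72300025-72504473, minus strand), the protease that activates atrial natriuretic peptide and is known for its part in uterine artery remodelling, stood at 27.1, 61.6 and 21.0 CPM in the enzyme-rich spots and 2.18, 4.15 and 1.72 CPM in the other spots. It was highest in replicate 3 on both sides, and the ranges did not overlap. Its log2 fold change of 4.03 ± 0.18 (edgeR adjusted p = 2.3e-10) was the largest against all other spots among the named genes. Cck, the peptide hormone cholecystokinin, stood at 7.74, 109.8 and 27.9 CPM in the enzyme-rich spots and 0.769, 7.35 and 2.67 CPM in the other spots. Here the lowest enzyme-rich library (the first) stood just above the highest other library (replicate 3), while within every library the enzyme-rich spots were higher, with a log2 fold change of 3.96 ± 0.17 (edgeR adjusted p = 1.8e-10).

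Mrgprg (chr7:143763710-143766993, minus strand), an orphan G protein-coupled receptor, stood at 858, 1225 and 937 CPM in the enzyme-rich spots and 96.5, 168 and 97.2 CPM in the other spots. Its enzyme-rich levels were all above its other levels, and the log2 fold change was 3.39 ± 0.09 (edgeR adjusted p = 1.6e-12). Atp6v0d2, a subunit of the vacuolar proton pump known from osteoclasts, stood at 229, 161 and 205 CPM in the enzyme-rich spots and 24.1, 18.1 and 21.2 CPM in the other spots, without overlap, with a log2 fold change of 3.52 ± 0.09 (edgeR adjusted p = 1.4e-12). Mal, a membrane protein of lipid rafts, stood at 160.2, 213 and 170.1 CPM in the enzyme-rich spots and 12.05, 30.1 and 14.7 CPM in the other spots. It too had no overlap, with a log2 fold change of 3.61 ± 0.15 (edgeR adjusted p = 6.7e-11). Klk8, a secreted serine protease, stood at 118, 226 and 183 CPM in the enzyme-rich spots and 12.6, 21.8 and 12.98 CPM in the other spots, with a log2 fold change of 3.79 ± 0.12 (edgeR adjusted p = 7.6e-12). Its neighbour Klk9 had 3.52 ± 0.17, and since kallikreins resemble each other their counts share some uncertainty. Of 11 tested kallikreins and cornified envelope genes, 5 were higher (all genes: 8.85%), with a median of 1.16. The list summed to 773, 806 and 1016 CPM in enzyme-rich spots and 1827 and 2330 CPM in the Prl8a2-dominated spots. It summed to 613, 1083 and 396 CPM in the Dio3, Mt3 and Coch spots. In the Fmo1, Susd2 and Hsd17b1 spots the sums were 15.4, 26.9 and 17.4 CPM.

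The other genes named for large rises were Chd5 (3.94 ± 0.17), a chromatin remodeller, Csta2 (3.82 ± 0.15), a cysteine protease inhibitor with near copies, Tubb4a (3.45 ± 0.15), a tubulin, Havcr1 (3.29 ± 0.19), a phosphatidylserine receptor, Kcnv2 (3.27 ± 0.17), a potassium channel subunit, and Slc39a2 (3.22 ± 0.12), a zinc importer. All were higher in enzyme-rich spots in each of the 3 libraries. The most counted gene of enzyme-rich spots was Ctla2a, a cysteine protease inhibitor of the decidua with the near copy Ctla2b. It took 6.49, 5.95 and 5.73% of their UMIs against 2.35, 2.10 and 1.98% in the other spots, a log2 fold change of 1.79 ± 0.04 (edgeR adjusted p = 3.9e-13). Txn1, the redox protein thioredoxin, stood at 3869, 4465 and 4866 CPM in the enzyme-rich spots and 987, 1198 and 1198 CPM in the other spots, with a log2 fold change of 2.25 ± 0.06 (edgeR adjusted p = 1.4e-12).

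**Figure D2:**
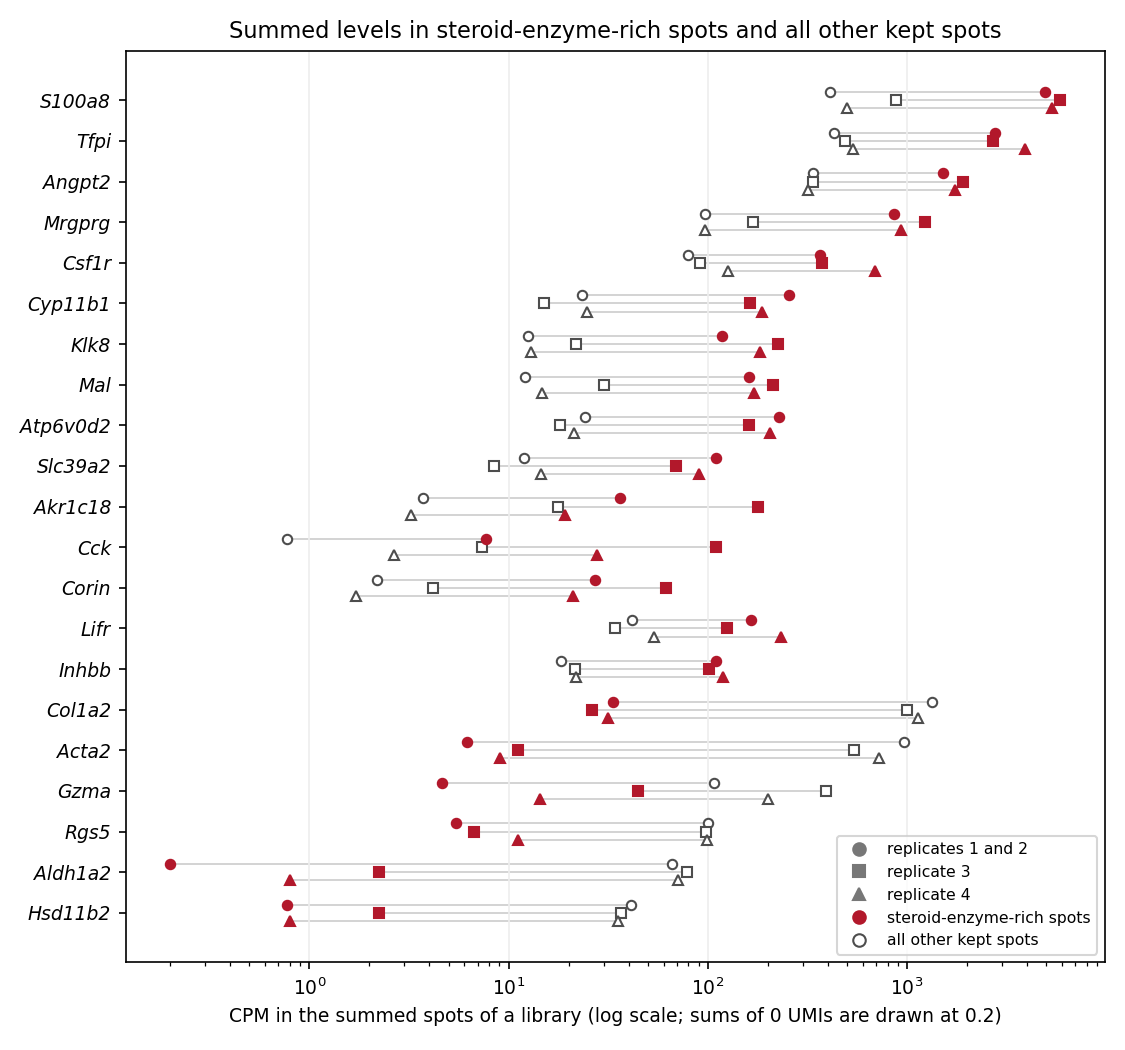
Summed levels in CPM (logarithmic axis, 1 marker shape per library) of 21 genes in enzyme-rich spots (filled) and in all other kept spots (open), with sums of 0 UMIs drawn at 0.2. For S100a8, Tfpi, Angpt2 and Cyp11b1 every filled marker lies right of every open one, and for Col1a2, Acta2, Aldh1a2 and Hsd11b2 every filled marker lies left.

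S100a8 (chr3:90668978-90670035, plus strand), a calcium binding protein known from neutrophils and also from decidual tissue, stood at 4904, 5877 and 5364 CPM in the enzyme-rich spots and 409, 880.4 and 497 CPM in the other spots, and the lowest enzyme-rich library exceeded the highest other library. The log2 fold change was 3.54 ± 0.13 (edgeR adjusted p = 1.9e-11). Its partner S100a9 stood at 183, 73.6 and 223 CPM in the enzyme-rich spots and 33.8, 17.2 and 36.6 CPM in the other spots, without overlap, at 2.70 ± 0.11 (edgeR adjusted p = 9.0e-11). The single spots of the 3 libraries ranged for S100a8 from 896 to 12836 CPM (median 4158), from 1317 to 12050 CPM (5742) and from 1122 to 13492 CPM (4982), so that no enzyme-rich spot was without it. The summed neutrophil list stood at 5090, 5952 and 5595 CPM in enzyme-rich spots and 448, 903 and 540 CPM in the other spots, of which S100a8 and S100a9 made up nearly the whole. Other neutrophil markers were near 0 in both sets. Over the 3 libraries together Cxcr2 stood at 0.686 CPM in enzyme-rich spots and 0.658 CPM in the other spots, Csf3r at 1.51 and 1.24 CPM, and Retnlg at 1.51 and 0.569 CPM, with all 11 enzyme-rich UMIs of Retnlg in replicate 4. Ly6g and Camp had 0 UMIs in enzyme-rich spots and 2 and 14 UMIs in the other spots, and Ngp had 0 in both.

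Csf1r, the receptor for macrophage colony-stimulating factor, stood at 365, 373 and 692 CPM in the enzyme-rich spots and 79.3, 91.3 and 126 CPM in the other spots. The ranges did not overlap and the log2 fold change was 2.53 ± 0.10 (edgeR adjusted p = 3.9e-11). Cd68, a lysosomal protein used as a macrophage marker, was higher as well, at 2.48 ± 0.13. Other macrophage markers were lower, among them C1qa, a complement subunit, at -2.30 ± 0.20. Of 14 tested macrophage and monocyte markers 3 were higher and 7 lower (all genes: 8.85% higher, 15.3% lower). The summed list stood at 738, 980 and 1104 CPM in enzyme-rich spots and 727, 1177 and 877 CPM in the other spots, which overlap. Lysosomal Ctsk, a collagen-cleaving cathepsin, was higher at 2.31 ± 0.09.

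Genes that hold clotting back were among the higher ones. Tfpi (chr2:84432855-84476775, minus strand), the inhibitor of the tissue factor pathway, stood at 2779.9, 2694 and 3926 CPM in the enzyme-rich spots and 428, 488 and 533 CPM in the other spots. The lowest enzyme-rich library was several times the highest other library, and the log2 fold change was 2.97 ± 0.08 (edgeR adjusted p = 1.9e-12). Procr, the receptor for the anticoagulant protein C, stood at 266, 539 and 268 CPM in the enzyme-rich spots and 79.2, 141 and 72.5 CPM in the other spots, without overlap, at 2.15 ± 0.08 (edgeR adjusted p = 4.3e-11). F3, tissue factor itself (-1.98 ± 0.28), F13a1, the clot cross-linking enzyme (-2.61 ± 0.28), and Plat, tissue plasminogen activator (-1.64 ± 0.24), were lower. In all, 5 of 12 tested genes were higher and 3 lower (all genes: 8.85% higher, 15.3% lower), with a median of 0.78.

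Vascular genes divided by cell type. Angpt2 (chr8:18690263-18741562, minus strand), an antagonist of vessel stability, stood at 1513, 1911 and 1737 CPM in the enzyme-rich spots and 336, 336 and 317 CPM in the other spots. Its values hardly varied between libraries on either side, and the log2 fold change was 2.67 ± 0.08 (edgeR adjusted p = 4.3e-12). Angpt1, its counterpart from perivascular cells, had 0 UMIs in the enzyme-rich sums and was at least 8.80-fold lower. Cdh5, the adhesion protein of endothelial junctions, stood at 382, 405 and 490.2 CPM in the enzyme-rich spots and 117, 129.7 and 144 CPM in the other spots, and Cldn5, a tight junction protein of endothelium, stood at 224, 365 and 233 CPM in the enzyme-rich spots and 49.2, 94.0 and 56.3 CPM in the other spots. Neither overlapped between the sets, and the fold changes were 2.00 ± 0.08 (edgeR adjusted p = 6.1e-11) and 2.35 ± 0.08 (edgeR adjusted p = 2.3e-11). Flt4, a receptor for vascular growth factors of lymphatic and sinusoidal vessels, was higher at 2.79 ± 0.14, while Prox1, which defines lymphatic endothelium, had 0 UMIs in enzyme-rich spots and stood at only 0.464 CPM over the other spots. Of 17 tested endothelial markers 11 were higher and 2 lower. These were Robo4 (-1.74) and Plvap (-1.20), whose call was lost among spots of like depth (-0.80). With total UMIs as the only scaling 5 were higher. Of 19 angiogenic ligands 2 were higher and 8 lower (all genes: 8.85% higher, 15.3% lower).

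Pericytes, which wrap small vessels, showed the reverse. Rgs5 stood at 5.42, 6.69 and 11.2 CPM in the enzyme-rich spots and 101, 98.1 and 99.3 CPM in the other spots, and every enzyme-rich library was below every other library at -3.24 ± 0.17 (edgeR adjusted p = 1.1e-09). Pdgfrb, the growth factor receptor of pericytes, was at -4.15 ± 0.35. Of 7 tested pericyte markers 6 were lower, with summed levels of 41.8, 56.7 and 58.6 CPM against 213, 202 and 214 CPM.

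Among the signalling pathways of decidualization, the receptors of the LIF family were higher. Lifr, the receptor for leukemia inhibitory factor, stood at 166, 124 and 233 CPM in the enzyme-rich spots and 41.5, 34.3 and 53.8 CPM in the other spots. The sets did not overlap and the log2 fold change was 2.29 ± 0.09 (edgeR adjusted p = 8.1e-11). Its signalling partner Il6st was at 1.66 ± 0.08, Osmr, the oncostatin M receptor, at 1.81 ± 0.14 and Il6ra at 1.82 ± 0.18. These 4 of 10 tested genes were called higher. In the BMP list, Inhbb, a subunit of activin B and inhibin B, stood at 109.9, 101 and 119 CPM in the enzyme-rich spots and 18.4, 21.6 and 21.8 CPM in the other spots, without overlap, at 2.70 ± 0.11 (edgeR adjusted p = 5.2e-11). Bmp7 was higher at 2.09 ± 0.15, while Bmp2, the ligand that drives decidualization, did not pass the fold limit at 0.78 ± 0.10. The targets Id1 (-1.36 ± 0.12) and Id3 (-2.24 ± 0.12) were lower, and of 27 tested genes 4 were higher and 7 lower (all genes: 8.85% higher, 15.3% lower). Of 18 tested Wnt ligands and antagonists 13 were lower and 1 higher. The lower ones include Wnt5a (-3.99 ± 0.18), Wnt6 (-2.46 ± 0.19) and the antagonists Sfrp1 (-5.13 ± 0.29) and Dkk3 (-3.72 ± 0.23). The Wnt list summed to 535, 386 and 457 CPM in enzyme-rich spots and to a like 588 and 554 CPM in the Prl8a2-dominated spots. It was higher in the Dio3, Mt3 and Coch spots (1974, 2134 and 2039 CPM) and in the Fmo1, Susd2 and Hsd17b1 spots (1306, 1063 and 1348 CPM).

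Several genes of the response to low oxygen were higher, and most of glycolysis stayed under the fold limit. Ndrg1, a stress gene induced by hypoxia, stood at 550.1, 408 and 454 CPM in the enzyme-rich spots and 89.2, 132 and 103 CPM in the other spots. Its enzyme-rich levels were all above the other levels, at 2.42 ± 0.14 (edgeR adjusted p = 2.3e-09). Slc2a3, a glucose transporter, stood at 348, 196 and 285 CPM in the enzyme-rich spots and 61.1, 91.1 and 99.5 CPM in the other spots, without overlap, at 1.99 ± 0.17 (edgeR adjusted p = 2.6e-07). Egln3, an oxygen sensor (2.78 ± 0.26), Bnip3, a mitophagy receptor (1.90 ± 0.09) and Pgk1, a glycolytic kinase (1.45 ± 0.08) were called as well. Pkm (0.85 ± 0.07) and Ldha (0.63 ± 0.08), late enzymes of glycolysis, were not called. Of 23 tested genes 6 were higher and 1 lower. The 19 tested genes of oxidative phosphorylation had a median of -0.28.

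Most genes of the interferon response list were higher. Isg15, a ubiquitin-like modifier, stood at 195, 449 and 414 CPM in the enzyme-rich spots and 53.8, 189 and 164 CPM in the other spots. It was low in the first library on both sides, and the enzyme-rich level of that library, 195 CPM, lay just above the highest other level, 189 CPM. The log2 fold change was 1.75 ± 0.10 (edgeR adjusted p = 3.6e-09). Rsad2 (1.92 ± 0.18), Usp18 (1.59 ± 0.12) and Oasl2 (1.38 ± 0.11), antiviral effectors and regulators, followed. In all 10 of 17 tested genes were higher, with a median of 1.05. With total UMIs as the only scaling 5 were higher and 1 lower, so that many of these calls lie near the limit.

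Matrix genes of the stroma were much lower than in all other spots. Col1a2, a chain of type I collagen, stood at 33.3, 26.3 and 31.7 CPM in the enzyme-rich spots and 1339, 1005 and 1134 CPM in the other spots, a log2 fold change of -4.94 ± 0.09 (edgeR adjusted p = 1.2e-13). Fn1, fibronectin, stood at 10.1, 35.7 and 35.1 CPM in the enzyme-rich spots and 805, 658 and 608 CPM in the other spots, at -4.23 ± 0.22 (edgeR adjusted p = 1.0e-09). For both genes the groups were far apart in each library. Col6a1 (-4.61 ± 0.15) and Lum (-4.41 ± 0.16) went the same way. Fbln2, an elastic fibre protein, was the 1 matrix gene called higher (1.27 ± 0.09), and it lost the call with total UMIs as the only scaling (0.98). Of 19 tested genes 13 were lower, with a median of -3.29. Their sums were 2861, 2922 and 2870 CPM in enzyme-rich spots and 3231, 2935 and 3230 CPM in the Dio3, Mt3 and Coch spots. They were 1654 and 1622 CPM in the Prl8a2-dominated spots and 9819, 9417 and 9311 CPM in the Fmo1, Susd2 and Hsd17b1 spots. These sets are described further below. Mmp2, a gelatinase, was lower at -4.54 ± 0.21, and the matrix growth factor Mdk at -4.57 ± 0.17.

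Smooth muscle markers were lower still against all other spots. Acta2 stood at 6.19, 11.2 and 9.05 CPM in the enzyme-rich spots and 969.9, 545 and 725 CPM in the other spots, at -5.98 ± 0.17 (edgeR adjusted p = 1.9e-12), and Cnn1, calponin, at 2.32, 2.68 and 2.13 CPM in the enzyme-rich spots and 467, 183 and 261 CPM in the other spots, at -6.56 ± 0.17 (edgeR adjusted p = 1.4e-12). Of 14 tested smooth muscle markers 12 were lower, with a median of -5.97. Their sums were 2928, 2042 and 2709 CPM in enzyme-rich spots. Lower sums were found in the Prl8a2-dominated spots (759 and 374 CPM) and in the Dio3, Mt3 and Coch spots (1823, 1443 and 1682 CPM). In the Fmo1, Susd2 and Hsd17b1 spots they were 2607, 2063 and 2133 CPM. Several named falls reached 1 UMI or 0 in the enzyme-rich sums of all libraries. Lrrtm1, a synaptic adhesion protein, had 0 UMIs against 875 in the other spots and was at least 31.8-fold lower. Ogn, a small matrix proteoglycan, had 1 UMI against 2198, a ratio of 240 (exact Poisson interval 43.0 to 9471). Tcf23, a transcription factor of the stroma, had 1 against 1851, a ratio of 202 (36.2 to 7976), and Lmod1, a muscle protein, 1 against 1609, a ratio of 176 (31.5 to 6933). Aoc3 and Asb2 also had 1 UMI, against 1239 and 1097. Pcp4 stood at 0, 3.12 and 0 CPM in the enzyme-rich spots and 273, 147 and 160.2 CPM in the other spots, with its enzyme-rich UMIs in replicate 3 alone.

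Of 18 tested proliferation genes 9 were lower and 1 was higher against all other spots, with a median of -0.99. Against the Prl8a2-dominated spots 10 of the 18 were higher (10.6% of all genes in that comparison). Against the Fmo1, Susd2 and Hsd17b1 spots 13 were lower (16.3% of all genes in that comparison). Mki67, the proliferation antigen, stood at 22.4, 29.4 and 18.6 CPM in the enzyme-rich spots and 56.5, 71.2 and 58.4 CPM in the other spots, without overlap, at -1.14 ± 0.12 (edgeR adjusted p = 2.4e-06). Ccnb1, the mitotic cyclin, was at -1.74 ± 0.16, and Ccnd1 at -1.52 ± 0.15. The higher gene was Rrm2, a subunit of ribonucleotide reductase that is abundant in decidua, at 4527, 3768 and 3906 CPM in the enzyme-rich spots and 2562, 2076 and 2143 CPM in the other spots. Its log2 fold change of 1.14 ± 0.06 was under the limit with total UMIs as the only scaling.

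Natural killer cell genes were lower in enzyme-rich spots than in all other spots, but at very different levels between libraries. Gzma, a granzyme, stood at 4.64, 44.6 and 14.4 CPM in the enzyme-rich spots and 107, 392 and 199 CPM in the other spots. Replicate 3 was highest and the first library lowest on both sides, and the log2 fold change was -3.23 ± 0.15 (edgeR adjusted p = 3.1e-10). All 19 tested markers were called lower, with a median of -2.52, but without the library as a block Prf1, Gzmd, Gzmg and Eomes lost their calls. The granzymes Gzmc to Gzmg are near copies. The summed list stood at 58.8, 2305 and 582 CPM against 1524, 8692 and 3742 CPM. Within the enzyme-rich spots, thinned to 5000 UMIs, 16.9, 74.7 and 42.1% held a natural killer UMI, and the 10% of spots with most of them held 71.4, 66.7 and 79.2% of these UMIs.

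The marker lists place the spots as follows. Summed decidual cell markers stood at 12343, 9252 and 11489 CPM in enzyme-rich spots and 8776, 5309 and 8025 CPM in the other spots. Most of the enzyme-rich sum was Cryab, and without it the sums were 3895, 3700.2 and 3356 CPM against 5325, 3017 and 5079 CPM, lower in 2 of 3 libraries. Of the 10 tested markers Cryab was called higher, and Prl3c1 and Alpl lower. These markers therefore did not set the spots apart as decidua, and the spots are named here by the genes that chose them. Endothelial markers were higher in sum (2000, 2385 and 2095 against 1024, 1168 and 984 CPM). Markers of undecidualized stroma were lower (334, 410 and 273 against 1596, 1203 and 1238 CPM), as were those of epithelium and glands (293, 202 and 461 against 1144, 623 and 1342 CPM). Trophoblast markers, apart from the defining genes, stood at 162, 156 and 240 against 188, 245 and 490 CPM. The rule kept spots high in trophoblast genes out of the members but not out of the other spots. This difference is therefore affected by the choice of spots. Erythroid markers stood at 966, 682 and 847 against 2958, 996 and 2152 CPM. The part of these other cell types in the results above was not tested.

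**Figure D3:**
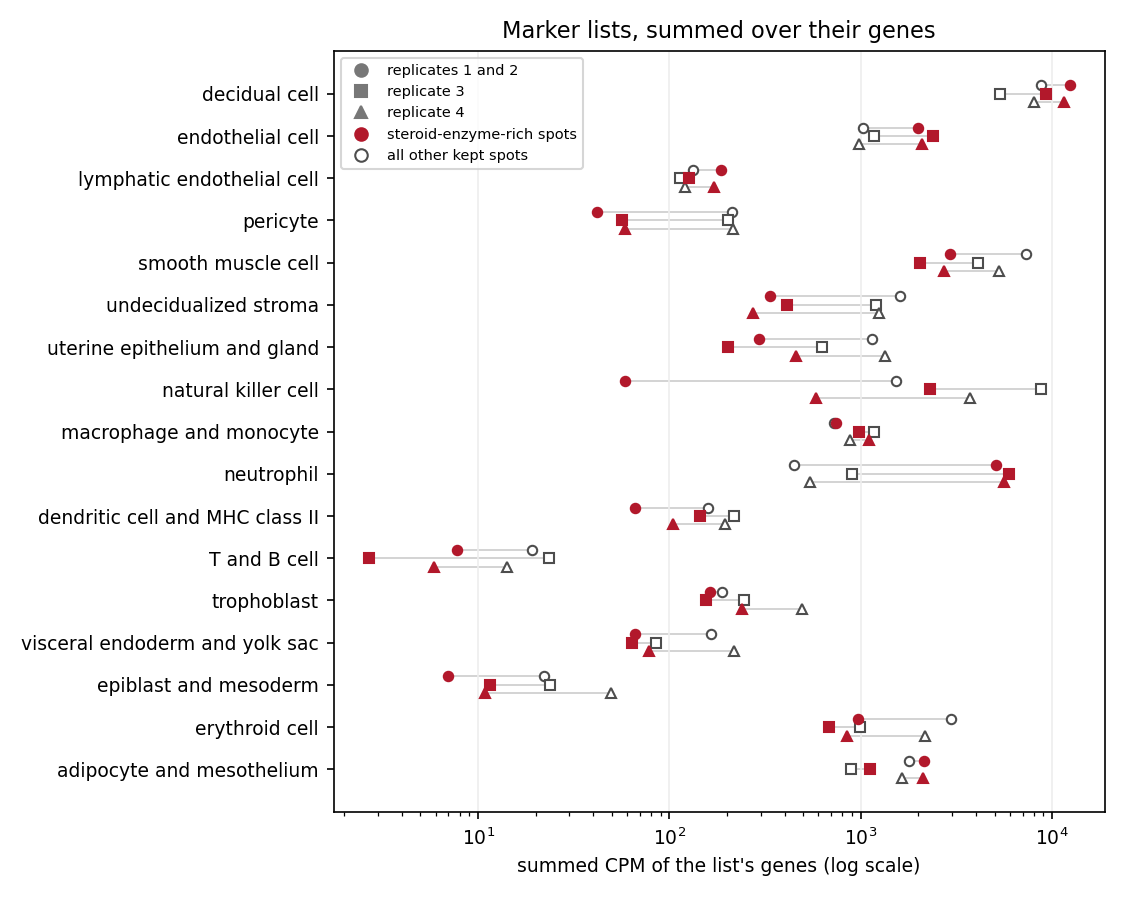
Summed CPM (logarithmic axis) of 17 marker lists in enzyme-rich spots (filled) and in all other kept spots (open), with 1 marker shape per library. The neutrophil list, made up mostly of S100a8 and S100a9, and the endothelial list lie higher in all 3 libraries, the pericyte, smooth muscle and natural killer lists lie lower, and the macrophage list overlaps.

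Against 3 other sets of spots, each chosen by its genes, the enzyme-rich spots were compared in a second fit of 11394 genes. All of these comparisons, and the one above, use the same enzyme-rich sums. The sets were the spots dominated by Prl8a2 (at or over 60000 CPM; 326 spots, summed in 2 libraries because replicate 3 had 17), and the top 10% of each library for Dio3, Mt3 and Coch (320 spots) and for Fmo1, Susd2 and Hsd17b1 (320 spots), and their defining genes were left out. Against the Prl8a2-dominated spots, 1209 genes (10.6%) were higher and 898 (7.88%) lower in enzyme-rich spots. Without replicate 4, which left 1 Prl8a2-dominated sum, 689 were higher. Against the Dio3, Mt3 and Coch spots 1602 (14.1%) were higher and 1236 (10.8%) lower, and against the Fmo1, Susd2 and Hsd17b1 spots 1930 (16.9%) and 1853 (16.3%). With total UMIs as the only scaling these counts were 2095 and 528, 1446 and 1466, and 1254 and 3271.

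Cyp11b1 was higher than in each set, at 4.28 ± 0.27 (edgeR adjusted p = 1.4e-08) against the Prl8a2-dominated spots, 5.28 ± 0.25 (edgeR adjusted p = 2.4e-10) against the Dio3, Mt3 and Coch spots and 4.23 ± 0.20 (edgeR adjusted p = 1.2e-10) against the Fmo1, Susd2 and Hsd17b1 spots. Its levels in those sets were 13.2 and 4.08 CPM, 6.29, 4.79 and 5.32 CPM and 11.2, 10.5 and 19.8 CPM. Star was at 1.94 ± 0.38, 3.89 ± 0.38 and 3.61 ± 0.33 in the same order of sets (1.38 against the first without replicate 4, where the call was lost), and Akr1c18 at 2.55 ± 0.42, 5.85 ± 0.39 and 5.30 ± 0.33. Cyp11a1 was not called against the first 2 sets (-0.48 ± 0.12 and 0.64 ± 0.11) and was higher than in the third (3.12 ± 0.12). Hsd11b1 was lower than in the Prl8a2-dominated spots (-1.57 ± 0.16) and higher than in the Fmo1, Susd2 and Hsd17b1 spots (2.72 ± 0.17). Mal was higher than in all 3 (4.61, 5.38 and 4.66).

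Of the Prl8a2-dominated spots, 43 of 241 in the first library and 7 of 68 in replicate 4 passed the enzyme limit themselves. What this did to the fold changes was not tested. Several leading genes were not called against the Prl8a2-dominated spots. Tfpi stood at 1377 and 1238 CPM there, and its log2 fold change of 0.96 ± 0.15 (edgeR adjusted p = 9.2e-05) missed the limit of 1 (1.35 with total UMIs as the only scaling, where it passed), against 5.10 ± 0.15 (edgeR adjusted p = 2.2e-12) and 5.50 ± 0.15 (edgeR adjusted p = 1.2e-12) in the other comparisons. Angpt2 (0.88 ± 0.13, and 1.27 and called with total UMIs as the only scaling), Lifr (-0.31 ± 0.13) and Csf1r (0.36 ± 0.15) were not called against them, while against the Dio3, Mt3 and Coch spots they were at 5.49, 4.46 and 4.99. S100a8 was higher than in all 3 sets, at 2.25 ± 0.35 (edgeR adjusted p = 1.3e-04), 6.09 ± 0.36 (edgeR adjusted p = 2.7e-09) and 5.60 ± 0.35 (edgeR adjusted p = 1.8e-09). Prolactin genes other than the defining ones, mixed against all other spots, were higher in 8 of 9 against the Dio3, Mt3 and Coch spots and in 9 of 9 against the Fmo1, Susd2 and Hsd17b1 spots, with medians of 3.94 and 4.43, and in 1 of 9 against the Prl8a2-dominated spots, where 4 were lower. Glycolysis and hypoxia genes were higher in 15 of 23 against the Prl8a2-dominated spots and in 15 of 23 against the Dio3, Mt3 and Coch spots. Natural killer markers, lower than in all other spots together, were higher than in the Dio3, Mt3 and Coch spots in 13 of 17 and lower than in the Fmo1, Susd2 and Hsd17b1 spots in 16 of 17.

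The largest differences from each set gave further names. Cck had 0 UMIs in the Prl8a2-dominated sums and was at least 36.9-fold higher in enzyme-rich spots, and Prf1, perforin of killer cells, was at least 28.3-fold higher. In the other direction Prl3c1, a decidual prolactin, stood at 155, 147 and 382 CPM in enzyme-rich spots and 10098 and 21839 CPM in the 2 Prl8a2-dominated sums, at -6.14 ± 0.35 (edgeR adjusted p = 6.9e-09). Aass, a lysine-degrading enzyme, was lower at -5.76 ± 0.33.

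Against the Dio3, Mt3 and Coch spots, Ptgs2, the inducible prostaglandin synthase, stood at 10.1, 18.7 and 28.2 CPM against 0 UMIs and was at least 44.1-fold higher. Egln3 had 332 UMIs against 1, a ratio of 273 (49.0 to 10776). Mt4, a metallothionein, was lower at -5.76 ± 0.24 (edgeR adjusted p = 8.8e-11), from 1332, 1774 and 1972 CPM there to 17.8, 31.2 and 38.3 CPM here, and Mgp, an inhibitor of calcification, at -5.33 ± 0.20 (edgeR adjusted p = 4.4e-11), from 10865, 7261 and 8498 to 181, 261 and 171 CPM. Neither gene overlapped between the sets in any library.

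Against the Fmo1, Susd2 and Hsd17b1 spots, Klk10 was at least 58.8-fold higher, with 187 UMIs against 0. Crct1, a gene of the cornified envelope cluster, stood at 268, 202 and 496 CPM against 0.699, 1.75 and 2.32 CPM, at 7.95 ± 0.23 (edgeR adjusted p = 1.6e-12). Lrrtm1 was at least 95.5-fold lower, and Kcnip3, a calcium sensor, had 2 UMIs against 380, a ratio of 202 (55.8 to 1664). Aldh1a2 was lower than in these spots (-6.16 ± 0.30) and than in the Dio3, Mt3 and Coch spots (-4.83 ± 0.35), and was not called against the Prl8a2-dominated spots (-0.99 ± 0.74).

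The enzyme-rich spots also differed among themselves. Tfpi ranged from 0 to 14052 CPM over the single spots of the first library (median 1070), from 113 to 11581 CPM in replicate 3 (1832) and from 76.4 to 14919 CPM in replicate 4 (1796). Angpt2 was more even, from 246 to 2842 (1432), from 796 to 3383 (1893) and from 590 to 2930 CPM (1683). Mrgprg ranged from 0 to 3226 (651), from 186 to 3307 (1093) and from 21.4 to 3200 CPM (661). Cyp11b1 ranged from 0 in all libraries to 904, 431 and 794 CPM, with medians of 188, 143 and 168.

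To describe which genes varied together, Spearman's rho was taken across the enzyme-rich spots of each library, thinned to 5000 UMIs (89, 75 and 88 spots). The points share a library and its sections, and no test was made. The 68 genes called higher with enough UMIs formed 2278 pairs, of which 748 (32.8%) were above 0 in all 3 libraries and 399 (17.5%) below 0 in all 3. The median rho was near 0 in each library (0.038, 0.035 and 0.029). Tfpi went with Lgals3, galectin 3 (0.878, 0.725 and 0.896), with Gm2a, a lysosomal lipid transfer protein (0.889, 0.703 and 0.841), and with Sbsn, suprabasin (0.741, 0.672 and 0.742). Mrgprg went with Tfpi as well (0.743, 0.359 and 0.830), least in replicate 3.

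A second group of genes ran opposite to Tfpi. S100a4, a calcium binding protein, had rho of -0.583, -0.676 and -0.720 with it, Prdx6, a peroxiredoxin, -0.575, -0.521 and -0.691, and Ly6c1, an endothelial surface protein, -0.489, -0.502 and -0.661. A2m, a protease inhibitor, went with Prdx6 (0.607, 0.761 and 0.674). Prl8a2 and the summed enzymes are limited by the rule, so rho with them is affected by the choice of spots and is not a result. For Tfpi it was 0.636, 0.671 and 0.585 with Prl8a2 and 0.470, 0.040 and 0.383 with the summed enzymes. The rho of Tfpi with the deposited UMIs of a spot was -0.180, 0.018 and 0.079. Cyp11a1 was weakly negative to Tfpi (-0.259, -0.053 and -0.270) and weakly positive to the second group, with rho of 0.187, 0.267 and 0.402 to Prdx6, 0.184, 0.281 and 0.211 to S100a4 and 0.152, 0.188 and 0.342 to Ly6c1.

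**Figure D4:**
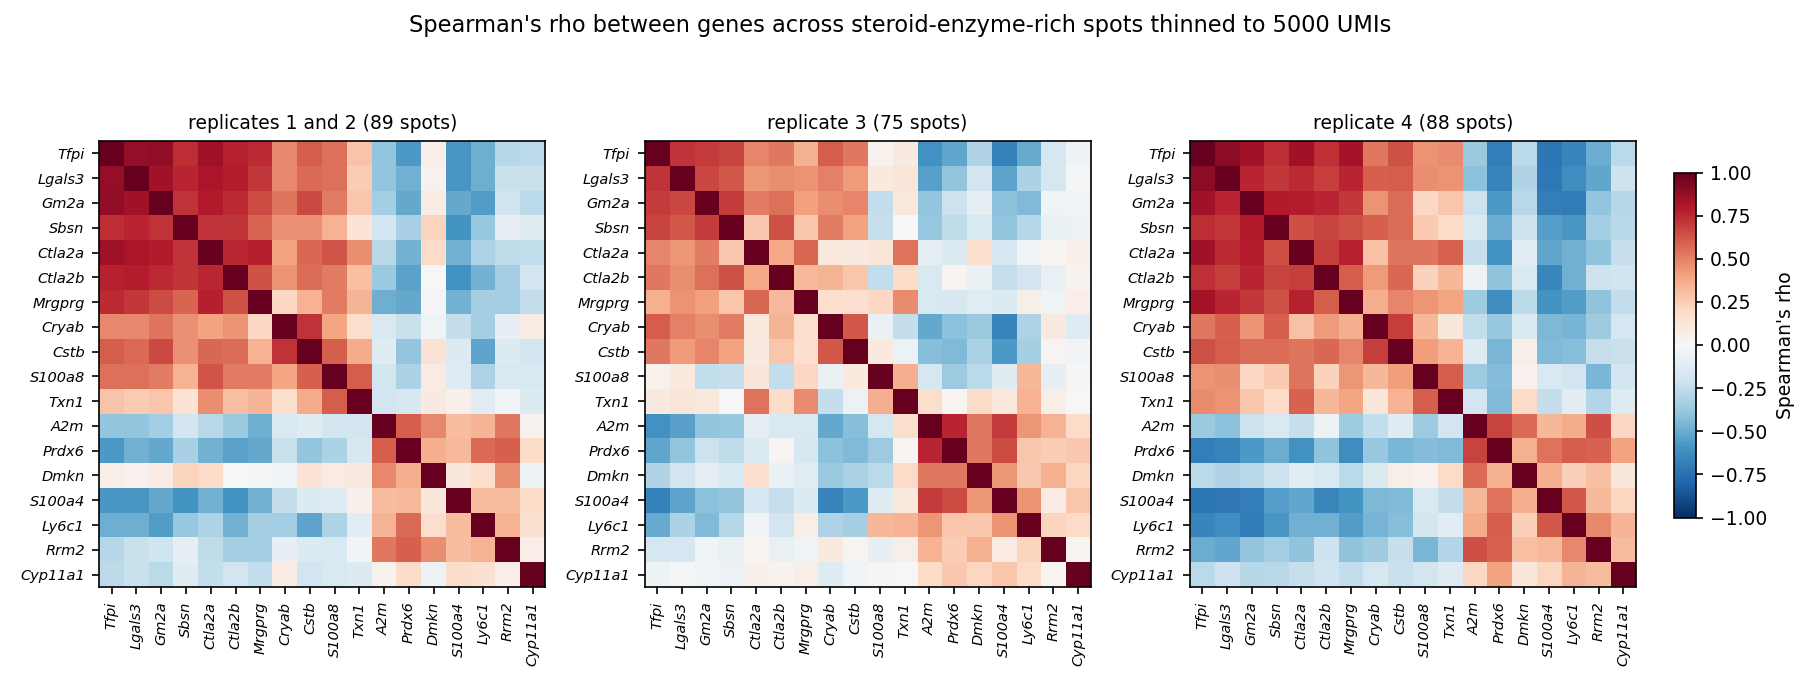
Spearman's rho (colour scale from -1 to 1) between 18 genes across the enzyme-rich spots of each library, thinned to 5000 UMIs. A block from Tfpi to Mrgprg with Cryab and Cstb is positive in all 3 libraries, a block of A2m, Prdx6, S100a4 and Ly6c1 runs opposite to Tfpi, and Cyp11a1 is weakly positive with Prdx6, S100a4 and Ly6c1 in all 3 libraries.

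The promoters of Tfpi and Mrgprg, which varied together across spots, are shown for the 250 bases before a RefSeq start (GRCm38.p6), 5′ to 3′ on the gene's strand. The windows are chr2:84476760-84477009 for Tfpi and chr7:143766994-143767243 for Mrgprg, both on the minus strand. Capitals mark matches to 3 motifs, searched on both strands. These were the nuclear receptor motif AGGTCA (on the other strand it reads TGACCT), the steroid receptor motif AGAACA (on the other strand it reads TGTTCT) and the TATA box TATAAA (on the other strand it reads TTTATA).
Tfpi: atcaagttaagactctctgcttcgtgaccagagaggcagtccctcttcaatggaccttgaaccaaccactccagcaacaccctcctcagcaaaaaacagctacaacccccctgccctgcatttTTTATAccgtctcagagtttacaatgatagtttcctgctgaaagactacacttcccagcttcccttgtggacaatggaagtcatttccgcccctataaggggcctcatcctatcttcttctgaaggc
Mrgprg: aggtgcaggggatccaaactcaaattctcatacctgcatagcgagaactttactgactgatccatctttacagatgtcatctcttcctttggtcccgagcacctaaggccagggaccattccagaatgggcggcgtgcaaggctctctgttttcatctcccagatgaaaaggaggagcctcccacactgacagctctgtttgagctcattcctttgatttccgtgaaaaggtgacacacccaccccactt
The Tfpi window had 1 match, to TTTATA, and the Mrgprg window had none. RefSeq gives a second start for Tfpi, whose window (chr2:84474175-84474424, minus strand) is not printed and had 0 matches. Among 32851 RefSeq windows of this length, 14.0% held AGGTCA, 16.1% AGAACA and 12.4% TATAAA on either strand. A match describes the letters only.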

How the data were processed

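The deposited files are matrices of UMI counts per gene and spot, made with Space Ranger 1.2.2 per the file headers, and mm10 per the submitters' processing notes; no filter made before deposit is stated there. They held 32285 genes and 3978 spots, and 3939 spots with at least 1000 UMIs were kept. The 3 libraries were those labelled for biological replicates 1 and 2 together, 3 and 4. With the library block, p-values rest on how the difference between spot sets within a library varied over these libraries. Spots are not replicates: counts were summed per library and spot set (at least 20 spots) and tested with edgeR 4.0.16 (quasi-likelihood test, TMM scaling, its filter on low counts, library block) in R 4.3.3, with Benjamini-Hochberg adjustment over all genes tested. The library block pairs spot sets of the same sections. The 8 genes of the rule stayed out of all fits, and the 6 genes that define the comparison sets out of theirs. Positions come from GENCODE vM21 (GRCm38) and promoters from RefSeq.

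Named genes were the 16 largest rises and 8 largest falls against all other spots, the 6 and 4 against each other set, up to 4 called and the 2 most counted genes of each list, and all tested steroid and retinoid genes. Sqle, Ctla2a, Rsad2, Fbln2, C1qa, F3, Plat, Plvap, Robo4, Fn1, Acta2, Pgr, Nr3c1, Pkm and Ldha, and the genes set side by side over the comparison sets, were chosen after their values were seen. The members and lists were chosen with earlier results of these data known. The edgeR fit was tested on simulated data. Alternatives were other scaling (also total UMIs only), DESeq2 1.42.0, limma 3.58.1 on log2 of the mean CPM plus 1, no filter, no block, no fold limit, other limits of the rule, other references, spots of like depth, and leaving out each library. The depth alternative and the one with total UMIs only were chosen after seeing the data. Doublet callers do not apply to spots. Spot positions and images were not used here.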

Additional observations from a re-analysis of the deposited data

How the results depend on the processing

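Counts of called genes moved most with the scaling and the fold limit. Against all other spots, 749 genes were higher with total UMIs as the only scaling and 715 with limma on mean CPM, and 1132 were lower among spots of like depth. Without a fold limit 3229 were higher and 3739 lower. Against the Prl8a2-dominated spots the counts higher and lower were 2095 and 528 with total UMIs only and 1921 and 479 with limma, and 2061 were lower without a fold limit. Against the Dio3, Mt3 and Coch spots 2781 and 2619 passed without a fold limit. Against the Fmo1, Susd2 and Hsd17b1 spots the counts were 1254 and 3271 with total UMIs only, 1192 and 3063 with limma, and 3376 and 3395 without a fold limit. Leaving out 1 library gave 1061 to 1240 higher and 1625 to 2097 lower against all other spots, and 689 to 1188 higher against the Prl8a2-dominated spots, where the lowest count came without replicate 4 and 1114 without replicate 3. The mean share of members was 9.01% with a lower enzyme limit of 1000 CPM and 4.05% with a higher one of 2500 CPM. Without the replicate block that pairs sets of the same library, 1118 genes were higher and 1775 lower against all other spots. The direction of 5 called genes reversed: Ceacam9 (0.50), Prl2a1 (1.76), Prl3c1 (0.10) and Tpbpa (0.58) with a reference without trophoblast and Prl8a2-dominated spots, and Upk3b (0.54) with no limit on Prl8a2. The cause was not tested, except that a scaling shifts all genes together and dropping the fold limit admits smaller changes by construction. Of 7065 comparisons of a named gene with an alternative, 6762 kept their side of the threshold. Small sums limit the low genes: the first library held 1292478 UMIs in its enzyme-rich spots.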

Other observations

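Several other gene lists were compared between the enzyme-rich spots and all other kept spots in the same way. Over all genes 8.85% were higher and 15.3% lower. Fabp5, a fatty acid carrier, stood at 354, 280.2 and 356 CPM in the enzyme-rich spots and 171, 112 and 159 CPM in the other spots, without overlap, with a log2 fold change of 1.47 ± 0.08 (edgeR adjusted p = 2.3e-09), and of 24 tested genes of lipid handling 4 were higher and 7 lower. Cxcl14, a chemokine, stood at 253, 244 and 397 CPM in the enzyme-rich spots and 1153, 833 and 1399 CPM in the other spots, again without overlap, with -1.63 ± 0.09 (edgeR adjusted p = 1.5e-09), and of 15 chemokines and cytokines 2 were higher and 7 lower. Timp3, a metalloproteinase inhibitor, differed by library. It stood at 798, 49.97 and 1145 CPM in the enzyme-rich spots and 151, 54.9 and 173 CPM in the other spots, so that replicate 3 showed no excess where the other libraries did, and its log2 fold change was 2.17 ± 0.35 (edgeR adjusted p = 1.2e-04). Of 19 matrix proteases and inhibitors 4 were higher and 7 lower.

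Of 18 junction genes 7 were higher and 4 lower (3 and 6 with total UMIs as the only scaling), of 22 genes of the secretory pathway 4 were higher, and of 16 immediate early genes 4 were higher and 2 lower. Fatty acid oxidation had 1 of 17 higher and 2 lower, antioxidant enzymes 3 of 24 and 4, tryptophan and polyamine metabolism 4 of 14 and 1, apoptosis and autophagy 3 of 22 and 2, and the polyploid cell cycle 2 of 14 and 3. Fatty acid oxidation and the antioxidant enzymes lay near the shares over all genes (8.85% higher, 15.3% lower). Basement membrane genes had 1 of 13 higher and 5 lower, creatine and thyroid hormone genes 1 of 8 and 4, and 2 of 4 metallothioneins were lower. Mt1, the most counted metallothionein, stood at 5369.5, 10206 and 7996 CPM in the enzyme-rich spots and 4792, 7784 and 6836 CPM in the other spots and was not called (0.55). Among markers of other cell types, 6 of 8 for undecidualized stroma and 7 of 13 for epithelium were lower. The next 4 counts moved with single libraries. Trophoblast had 6 of 10 lower (4 of 11 without replicate 3 and 2 of 8 without replicate 4). The rule kept spots high in trophoblast genes out of the members but not out of the other spots, so the trophoblast count is affected by the choice of spots. Yolk sac and visceral endoderm had 7 of 10 lower (1 of 7 without replicate 4) and 1 higher. Erythroid cells had 3 of 5 lower (0 of 5 without replicates 1 and 2, 2 of 5 without replicate 4, and 0 of 4 among spots of like depth), and epiblast and mesoderm 3 of 4 (1 of 3 without replicate 4). Lymphatic endothelium had 2 of 5 higher and 3 lower, and 2 of 4 neutrophil markers were higher. Small counts of higher genes also moved when a library was left out. Apoptosis and autophagy had 1 higher without replicate 3, and the polyploid cell cycle 1 without replicate 4. Chemokines and cytokines had 3 without replicates 1 and 2 and 1 without replicate 4, and basement membrane genes 2 without replicates 1 and 2 and 0 without either other library.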
